A study of Mus musculus with 24 samples.

Results

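Neuropeptides and catecholamines released by nerves reach group 2 innate lymphoid cells (ILC2) through receptors on these cells. The 9 genes described here are 3 peptide ligands (Nmu, Vip and Calcb) and 6 receptors or receptor partners (Nmur1, Vipr1, Vipr2, Calcrl, Ramp1 and Ramp3), taken by name from the 39056 genes of a mouse ileum count table. Adrenergic receptors and the other neuropeptide and transmitter genes were followed as a separate list of 53 pathway genes. All 9 genes were found in the table, and the rule that lists them uses no measured value. They were nevertheless chosen with earlier results of these data known.

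RNA was sequenced from live CD45+ and CD45- singlets that were sorted from ileum after Peyer's patches had been removed, with lamina propria cells and part of the epithelial fraction combined before the sort. There were 24 libraries in 8 groups of 3, from C57BL/6 mice of both sexes aged 9.0 to 10.3 weeks. In each fraction the 4 genotypes were Hoil1+/+ or Hoil1-/-, each with Il4raflox/flox alone (f/f) or with Vil1cre (ΔIEC). Every mouse, controls included, therefore carried floxed Il4ra. In ΔIEC mice the villin promoter drives Cre, which deletes Il4ra in intestinal epithelial cells (IECs) and leaves it in other cells. The Hoil1-/- allele (Rbck1tm1Kiwa) targets Rbck1, the gene for HOIL1, which belongs to the complex that builds linear ubiquitin chains, in all cells. The study describes these mice as partly deficient in HOIL1, because an N-terminal part of the protein is still made at a low level. The labels do not say which CD45+ and CD45- libraries came from the same mouse, so the fractions were not paired, and p-values measure the spread between the libraries of a group.

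Neuromedin U (NMU) is made by enteric neurons and activates ILC2 through its receptor NMUR1. Vasoactive intestinal peptide (VIP), another enteric neuropeptide, acts on the receptors VPAC1 and VPAC2, encoded by Vipr1 and Vipr2. Calcitonin gene-related peptide (CGRP) exists as an alpha form from Calca and a beta form from Calcb. The CGRP receptor is a complex of the receptor CALCRL with the partner protein RAMP1, whereas CALCRL with RAMP2 or RAMP3 binds adrenomedullin. Noradrenaline from sympathetic nerves acts through adrenergic receptors.

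In GRCm38, Nmur1 lies at chr1:86386303-86426228 on the minus strand, Nmu at chr5:76333495-76363788 (minus), Vip at chr10:5639218-5647617 (plus), and Calcb at chr7:114718643-114723365 (plus). Calcrl lies at chr2:84330626-84425411 (minus), Ramp1 at chr1:91179822-91225196 (plus), Ramp3 at chr11:6658521-6677475 (plus), Vipr1 at chr9:121642716-121672954 (plus) and Vipr2 at chr12:116077726-116146261 (plus). All 9 are protein-coding genes. Exons of Nmu and Ramp3 overlap those of a gene on the opposite strand (4930432L08Rik and Gm11978). The strand setting of the counting is not given in the sources used here, so reads from such partners could have been mixed.

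Promoter windows of Nmur1 and Vipr1 are printed because these genes gave the widest difference between Hoil1 genotypes and a receptor that separated the fractions. They are RefSeq sequences (GRCm38.p6) immediately before a transcript start, 5′ to 3′ in the gene's direction, and stretches inside annotated exons are left out. The second Nmur1 window therefore stops 66 bases short of its start. Both Nmur1 windows lie within the annotated span of the gene, outside its exons, and the Vipr1 window ends directly before the gene. Capitals mark a match to the letters bound by GATA factors (AGATAA, with T also allowed as the first and G as the last letter) or by ETS factors (CAGGAAG or CCGGAAG), on either strand.
Nmur1, first window, chr1:86389362-86389611 (minus): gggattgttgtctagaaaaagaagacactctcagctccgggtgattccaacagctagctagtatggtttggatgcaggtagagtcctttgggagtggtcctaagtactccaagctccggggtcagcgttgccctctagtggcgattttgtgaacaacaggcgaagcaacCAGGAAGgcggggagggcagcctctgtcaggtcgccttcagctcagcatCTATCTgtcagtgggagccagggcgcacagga
Nmur1, second window, chr1:86388208-86388391 (minus): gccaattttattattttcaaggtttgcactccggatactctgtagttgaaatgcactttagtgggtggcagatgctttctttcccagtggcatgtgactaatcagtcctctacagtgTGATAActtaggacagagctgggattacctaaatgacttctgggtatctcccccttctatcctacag
Vipr1, chr9:121642466-121642715 (plus): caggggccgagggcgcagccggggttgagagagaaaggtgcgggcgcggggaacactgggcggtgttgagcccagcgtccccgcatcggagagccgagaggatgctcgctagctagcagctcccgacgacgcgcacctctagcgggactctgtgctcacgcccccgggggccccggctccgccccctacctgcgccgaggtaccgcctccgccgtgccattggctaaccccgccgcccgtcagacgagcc
Both Nmur1 windows held a GATA match, AGATAG on the opposite strand 32 to 27 bases before the start in the first and TGATAA 133 to 128 bases before the start in the second. The first Nmur1 window also held CAGGAAG, 81 to 75 bases before the start. No letters of either set occurred in the Vipr1 window, nor in those of Nmu, Ramp1, Vipr2 and Vip. Calcrl had an ETS match (CAGGAAG, inside its annotated first exon) and so had Ramp3 (CCGGAAG). Among 32851 promoter windows of the same length, 26.5% held a GATA match and 17% an ETS match. A match describes the letters only.

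The CD45+ libraries held 14938629 to 76807504 counted reads and the CD45- libraries 6028275 to 68345191. Levels are given in CPM, the counts of a gene scaled to a common library total. Rbck1 was at 90.7 to 159 CPM in Hoil1+/+ and 5.37 to 15.9 CPM in Hoil1-/- CD45+ libraries, and at 72.9 to 110 and 0 to 7.31 CPM in CD45- libraries, so every library fitted its Hoil1 label. Ptprc, the gene for CD45, was at 250 to 757 CPM in CD45+ and 0 to 16.2 CPM in CD45- libraries, and the epithelial gene Epcam at 7.01 to 68.5 and 164 to 1257 CPM. Il4ra counts include exons that Cre does not remove and receptors of non-epithelial cells, so they did not check the deletion (log2 difference 0.02, SE 0.35, in CD45- cells). The study left out 3 libraries as outliers, namely CD45+ Hoil1-/- f/f replicate 1, CD45+ Hoil1-/- ΔIEC replicate 3 and CD45- Hoil1-/- f/f replicate 3. Levels below cover all 24 libraries. Fold changes and their edgeR quasi-likelihood tests cover the other 21, and the text says where the 3 libraries alter a result.

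The ligands were near or below detection. Nmu had 67 counts in CD45- Hoil1+/+ ΔIEC replicate 3 (0.81 CPM) and no count in the other 23 libraries. A count of 0 allows up to 3 counts, which is 0.0391 to 0.201 CPM in CD45+ and 0.0439 to 0.498 CPM in CD45- libraries. This floor covers counting error only, and PCR reads without molecular identifiers are not independent molecules. NMU transcripts were therefore not detectable at this depth in most of the material. The related ligand gene Nms had no count in any library.

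Vip was not counted in the 12 CD45+ libraries and was counted in 6 of 12 CD45- libraries. The Hoil1+/+ f/f libraries held 7.49, 0.18 and 19.6 CPM and the Hoil1+/+ ΔIEC libraries 1.38, 0 and 0.073 CPM. In Hoil1-/- mice all 3 f/f libraries were at 0 and the ΔIEC libraries at 0, 0.52 and 0 CPM. Hoil1+/+ f/f replicate 3 contributed 623 of the 721 Vip counts, so the level of this gene rested on that library. Vip was thus present in 5 of 6 Hoil1+/+ and 1 of 6 Hoil1-/- libraries, and the groups overlapped (exact permutation test, two-sided, 11 libraries, p = 0.113). Between fractions, the mean log2(CPM + 0.1) was -3.32 in CD45+ and -1.16 in CD45- libraries (permutation test, p = 0.0169). The 8 listed enteric neuron markers summed to 25.5 to 140 CPM in the CD45- libraries, highest in the library with the most Vip. Stmn2 (8.39 to 59.5 CPM), Uchl1 (3.61 to 32.5) and Ret (3.83 to 51.2) were counted in all 12 libraries and Elavl4 in 4 (up to 3.65 CPM), and whether the content of neuronal RNA set the Vip level was not tested.

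Calcb, the beta-CGRP gene, was counted in 4 of 12 libraries of each fraction. In CD45+ cells the values were 0, 0.70 and 0.85 CPM in Hoil1+/+ f/f and 0, 0.89 and 0.39 CPM in Hoil1+/+ ΔIEC libraries, and all 6 Hoil1-/- libraries were at 0. In CD45- cells the counts lay in Hoil1+/+ f/f (0.25, 0 and 0.22 CPM) and Hoil1-/- ΔIEC libraries (0, 1.08 and 2.32 CPM). The groups overlapped in both fractions, and the exact permutation p for the Hoil1 difference was 0.143 in CD45+ and 0.455 in CD45- libraries.

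Calca, the alpha-CGRP gene and the other source of CGRP, took the opposite pattern in CD45+ cells. Hoil1-/- libraries held 2.51, 7.48 and 1.76 CPM in f/f and 23.3, 12.1 and 4.30 CPM in ΔIEC, against 0, 0.66 and 0 CPM and 1.28, 0 and 1.31 CPM in Hoil1+/+ libraries. Every Hoil1-/- library thus lay above every Hoil1+/+ library, as was the case for 0.156% of the 16060 genes compared over all 12 CD45+ libraries, and the reverse order was seen for 0.0996%. The log2 fold change was 4.29 (SE 1.25), and it did not pass the adjusted threshold (edgeR quasi-likelihood, adjusted p = 0.777). Calca was at 0 in all 12 CD45- libraries. With both genes summed, the level ranged from 0 to 1.70 CPM in Hoil1+/+ and from 1.76 to 23.3 CPM in Hoil1-/- CD45+ libraries. Counts are per gene and do not tell its transcripts apart, so this sum does not measure CGRP transcripts alone. Calca and Calcb transcripts shared 12 of their 50-base stretches (0.715% and 0.952% of each). The handling of reads that map to several genes is not given in the sources used here, and exchange of reads between the genes was not tested.

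**Figure D1:**
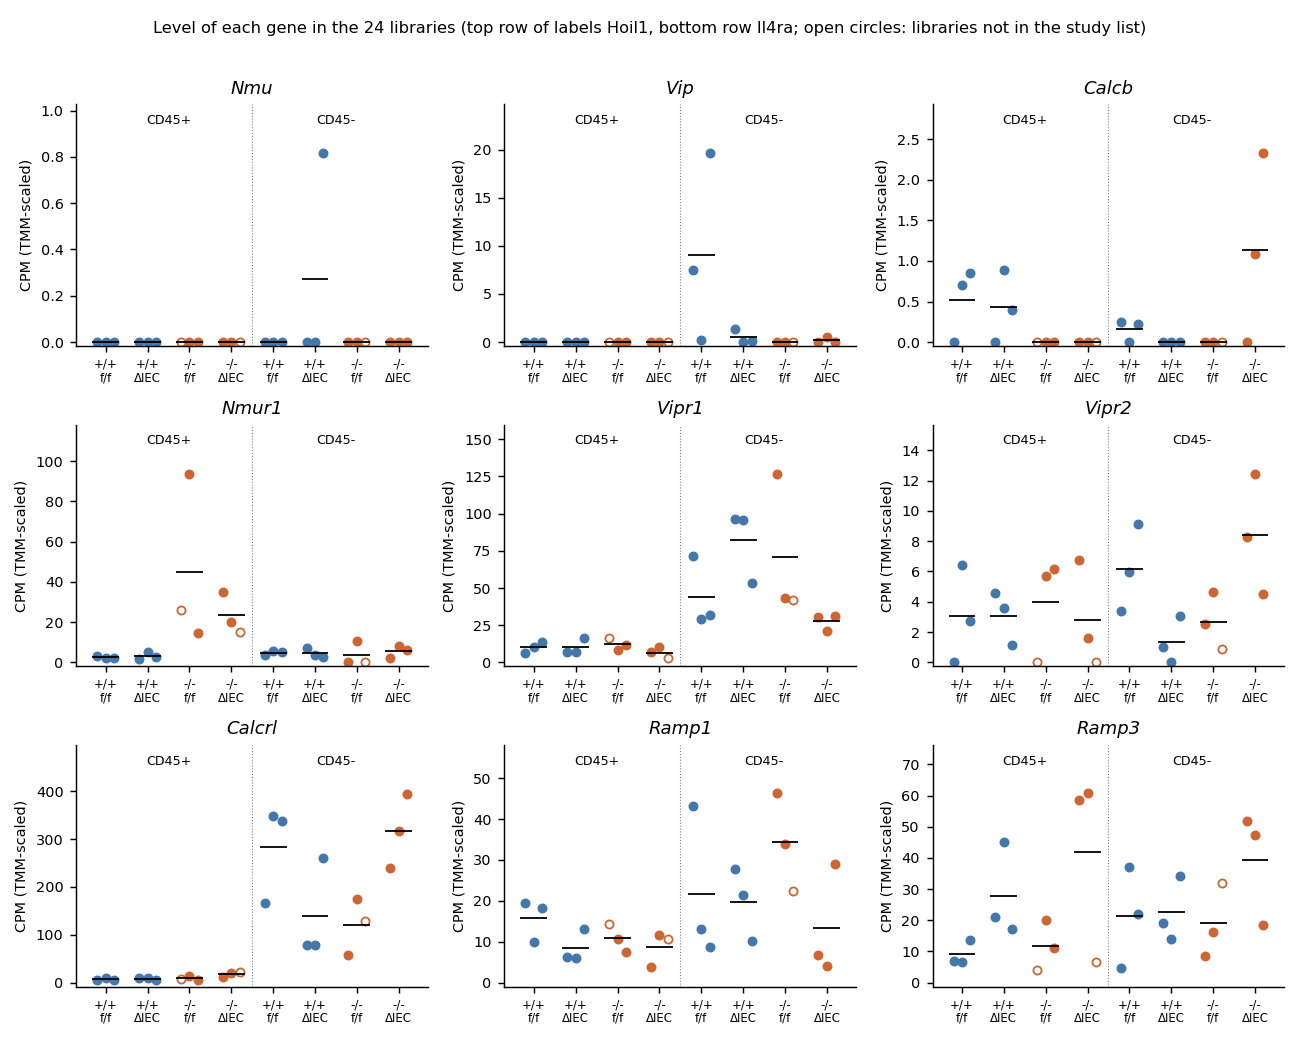
Each panel shows 1 of the 9 genes, with the level in CPM (TMM-scaled, linear axis from 0) of every library in the 8 groups, the group mean as a bar, Hoil1+/+ in blue and Hoil1-/- in orange. Open circles are the 3 libraries that the study left out. Nmur1 stands at 14.5 to 93.8 CPM in CD45+ Hoil1-/- libraries against 1.68 to 5.01 CPM in Hoil1+/+ libraries, and Calcrl and Vipr1 stand higher in every CD45- than in every CD45+ library.

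Nmur1, the NMU receptor of ILC2, was the only one of the 9 genes whose CD45+ values did not overlap between the Hoil1 genotypes, beside 0.156% of 16060 genes with every Hoil1-/- library above and 0.0996% with every one below. The Hoil1+/+ libraries held 3.37, 1.97 and 2.24 CPM in f/f and 1.68, 5.01 and 2.67 CPM in ΔIEC mice. Hoil1-/- libraries held 26.2, 93.8 and 14.5 CPM in f/f and 35.1, 20.0 and 15.0 CPM in ΔIEC mice. The lowest Hoil1-/- value, 14.5 CPM, was above the highest Hoil1+/+ value, 5.01 CPM, with the left-out libraries (26.2 and 15.0 CPM) inside the Hoil1-/- range.

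The log2 fold change of Nmur1 was 3.77 (SE 0.51, 95% interval 2.63 to 4.92), about 13.7-fold. With edgeR's quasi-likelihood test its adjusted p was 0.0968, above the threshold of 0.05, and 0.0773 over all 12 libraries (log2 fold change 3.53). No member passed in this comparison, in which 1 of 17029 genes did (0.00587%). An unadjusted p under 0.05 was seen for 996 genes, Nmur1, Ramp3 and Calcb among them. Calcb had no count in any Hoil1-/- CD45+ library, and its exact permutation p was 0.143. DESeq2 (adjusted p = 5.2e-10) and the likelihood ratio test of edgeR (adjusted p = 2.39e-09) called Nmur1 and no other member, with 0.758% and 0.605% of genes called by these tests. The exact permutation p was 0.00952, the smallest that 210 permutations allow. When each of the 10 libraries was left out in turn, the log2 fold change lay between 2.81 (without the highest library, Hoil1-/- f/f replicate 2) and 4.17, and 1 of the 10 fits passed (edgeR quasi-likelihood, adjusted p from 0.0174 to 0.447). That fit lacked Hoil1-/- f/f replicate 3. Its Hoil1-/- f/f group was the 93.8 CPM library alone, assumed to vary like the other groups.

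For deletion of Il4ra in IECs, the log2 difference of Nmur1 in CD45+ cells was -0.33 (95% interval -1.43 to 0.78). The Hoil1 effect in ΔIEC minus that in f/f mice was -1.28 on the log2 scale (95% interval -3.50 to 0.94), an interval wide enough to hold differences of several fold in either direction. No gene among the 17029 tested was called for this interaction in CD45+ cells (0%), no member had an unadjusted p under 0.05, and DESeq2 and the likelihood ratio test also called 0 members.

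Some of the ILC2 markers moved with Nmur1 across the CD45+ libraries. The 10 listed markers summed to 74.4 to 356 CPM (median 168) in Hoil1+/+ and 129 to 892 CPM (median 443) in Hoil1-/- libraries. All 10 markers were counted, and 3 of them did not overlap between genotypes: Il5, Klrg1 and Il1rl1, which encodes the IL-33 receptor. None of the genes on the lists for T cells, B cells, plasma cells, macrophages and dendritic cells, or mast cells separated the Hoil1 genotypes in this way. Of 16060 genes, 0.156% had every Hoil1-/- library above and 0.0996% every one below, so lists this short cannot show unchanged cell content. T cell markers summed to 450 to 2590 CPM (median 1348) in Hoil1+/+ and 381 to 1153 CPM (median 773) in Hoil1-/- libraries. The other lists had higher medians in Hoil1-/- libraries, and all ranges overlapped. In bulk RNA, more cells of a type and more transcript per cell cannot be told apart, and their parts in the Nmur1 difference were not tested.

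Nmur1 was also set against other ILC2 genes. Klrg1 encodes a surface receptor of mature ILC2. The ratio of Nmur1 to Klrg1 counts was 0.144 to 0.744 (median 0.59) in the 6 Hoil1+/+ and 0.437 to 1.16 (median 0.687) in the 6 Hoil1-/- libraries, and the ranges overlapped. Against Il1rl1 the ratio was 0.195 to 0.881 (median 0.402) and 0.596 to 2.79 (median 0.793). Relative to Gata3, a transcription factor that T cells also express, it was 0.0193 to 0.277 (median 0.0703) and 0.106 to 0.888 (median 0.315). Ratios to Il17rb, the IL-25 receptor gene, spread most widely, from 0.113 to 2.27 and from 0.22 to 10.6.

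Among 12977 genes compared over the 12 CD45+ libraries, the genes whose log2 level followed that of Nmur1 most closely were Klrg1 (Pearson r = 0.936), Arg1, an arginase that ILC2 contain (0.921), and Pcsk1, a peptide hormone convertase (0.902). Il5 came next (0.898) and Calca at rank 15 (0.774), whereas Calcrl stood at 0.543 and Ramp3, Vipr2, Vipr1 and Ramp1 between 0.191 and -0.224. These correlations describe libraries that share 2 Hoil1 genotypes and differ in depth and cell content, and they carry no test.

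**Figure D2:**
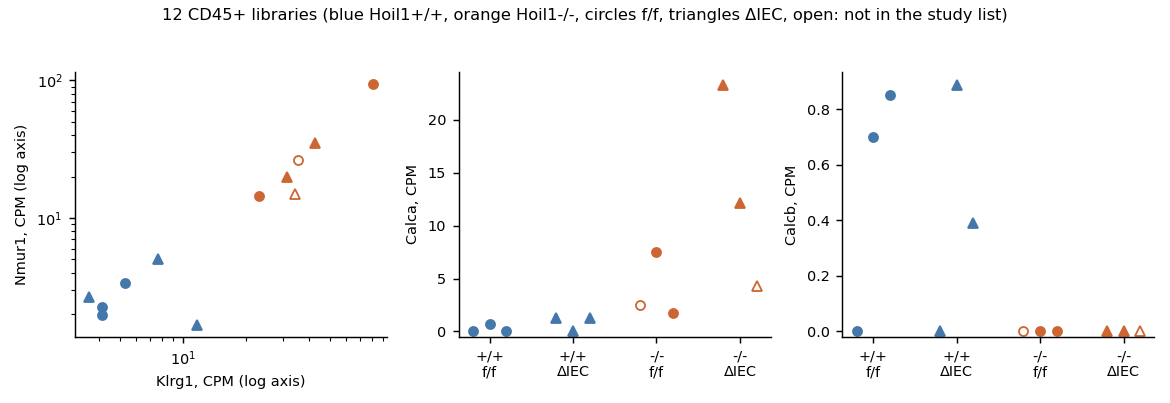
The left panel plots Nmur1 against Klrg1 (CPM, both axes log) in the 12 CD45+ libraries, and the other panels plot Calca and Calcb in CPM (linear axes from 0) by genotype. Blue is Hoil1+/+, orange Hoil1-/-, circles f/f, triangles ΔIEC, and open symbols the libraries that the study left out. The 6 Hoil1-/- libraries lie above the 6 Hoil1+/+ libraries for Nmur1 and Calca, and Calcb counts lie in Hoil1+/+ libraries alone.

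Nmur1 was also counted outside the CD45+ sort. The CD45- libraries of Hoil1+/+ mice held 3.62, 5.61 and 5.32 CPM in f/f and 7.08, 3.81 and 2.76 CPM in ΔIEC mice. Those of Hoil1-/- mice held 0, 10.5 and 0 CPM in f/f and 2.00, 8.20 and 6.29 CPM in ΔIEC mice. In Hoil1+/+ mice the CD45- range thus overlapped the CD45+ range. Of the 10 ILC2 markers, Il5, Il13 and Klrg1 were at 0 in all 12 CD45- libraries. The other 7 were counted in some or all of them, among them Hs3st1 (14.1 to 67.2 CPM) and Rora (2.00 to 11 CPM), and the list summed to 33.1 to 78.2 CPM. Across the 12 CD45- libraries Nmur1 followed the summed smooth muscle and pericyte markers (r = 0.799) more closely than the epithelial (-0.071) or blood endothelial markers (0.188), and the cell of origin was not tested.

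The CD45- groups overlapped for Nmur1 and for each of the other members, where 0.0196% of 15332 genes had every Hoil1-/- library above every Hoil1+/+ library and 0.0652% the reverse. For Nmur1 this gave a log2 difference between Hoil1 genotypes of 0.18 (95% interval -1.83 to 2.20). By edgeR's quasi-likelihood test no member passed there, in a comparison where 3 of 16453 genes were called (0.0182%). Vip alone had an unadjusted p under 0.05, and it had no count in the Hoil1-/- f/f libraries. Neither DESeq2 nor the likelihood ratio test called a member. The Hoil1 effect on Nmur1 was larger in CD45+ than in CD45- cells by 3.59 on the log2 scale (SE 1.12, unadjusted p = 0.00561). This difference did not pass the adjusted threshold (edgeR quasi-likelihood, adjusted p = 0.546; DESeq2, 0.0555), which 5 of 18778 genes did (0.0266%).

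Calcrl, the shared receptor of CGRP and adrenomedullin, had the largest estimate between fractions among the members. Its level was 5.30 to 22.3 CPM (median 9.38) in the 12 CD45+ and 57.3 to 395 CPM (median 208) in the 12 CD45- libraries, with no overlap. The log2 difference was -4.31 (SE 0.34, 95% interval -5.02 to -3.59; edgeR quasi-likelihood, adjusted p = 4.38e-08). Vipr1, the VPAC1 gene, was at 2.79 to 16.6 CPM (median 9.15) in CD45+ and 21.3 to 127 CPM (median 42.7) in CD45- libraries, again without overlap. Its log2 difference was -2.49 (SE 0.28, 95% interval -3.09 to -1.89; adjusted p = 2.0e-06). For both genes the permutation p was 2e-05, the smallest that 100000 resamples can give.

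Ramp1, the partner that makes CALCRL a CGRP receptor, was at 3.85 to 19.5 CPM (median 10.6) in CD45+ and 4.14 to 46.3 CPM (median 22) in CD45- libraries. The fractions overlapped, and the log2 difference was -1.15 (SE 0.40; edgeR quasi-likelihood, adjusted p = 0.0228). Calcrl, Vipr1 and Ramp1 were therefore the 3 of 8 members tested that were lower in CD45+ cells, a direction called for 25.1% of all genes. DESeq2 called Vip as well, with 28.4% of all genes called lower. Complete separation with CD45+ below CD45- libraries, as in Calcrl and Vipr1, was seen for 7.99% of 17903 genes. No member was higher in CD45+ cells, where 24.5% of all genes were called. Leaving out any of 4 libraries in turn took Ramp1 above the threshold (adjusted p up to 0.0727), namely CD45+ Hoil1-/- ΔIEC replicate 1, CD45+ Hoil1-/- f/f replicate 3, CD45- Hoil1+/+ f/f replicate 1 and CD45- Hoil1-/- ΔIEC replicate 3.

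Ramp3, the adrenomedullin receptor partner, and Vipr2, the VPAC2 gene, did not differ detectably between fractions. Ramp3 was at 3.94 to 60.7 CPM (median 15.5) in CD45+ and 4.74 to 52.0 CPM (median 20.6) in CD45- libraries, with a log2 difference of -0.01 (95% interval -0.71 to 0.69). Vipr2 was at 0 to 6.76 CPM (median 3.16) and 0 to 12.5 CPM (median 3.94), with counts in 9 and 11 of 12 libraries and a log2 difference of -0.04 (95% interval -1.57 to 1.49). For Nmur1 the log2 difference was 1.04 (95% interval -0.13 to 2.21; adjusted p = 0.136).

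Per kb of exon, the order of the 6 receptor genes differed between fractions. In CD45+ cells Ramp3 came first (median 11.2 CPM per kb), followed by Nmur1 (5.76), Ramp1 (3.50), Calcrl (1.92), Vipr1 (1.58) and Vipr2 (0.71). CD45- cells held most Calcrl (42.6 CPM per kb), followed by Ramp3 (14.9), Vipr1 (7.36), Ramp1 (7.28), Nmur1 (2.69) and Vipr2 (0.88). The ranges over libraries of any neighbours in either order overlapped. Within CD45+ cells the place of Nmur1 depended on genotype, with a median of 1.45 CPM per kb in Hoil1+/+ and 13.6 CPM per kb in Hoil1-/- libraries.

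**Figure D3:**
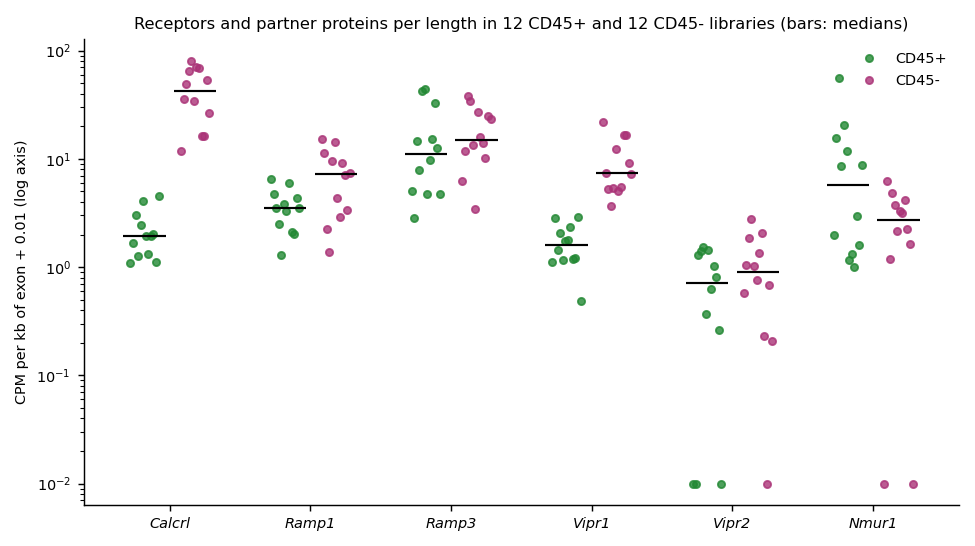
Points are libraries, 12 per fraction, for the 6 receptor and partner genes, in CPM per kb of exon plus an offset of 0.01 so that 0 can be drawn on the log axis, with bars at the medians. Calcrl has a median of 1.92 CPM per kb in CD45+ and 42.6 CPM per kb in CD45- libraries.

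The Hoil1-/- genotype was not accompanied by a called change in the other receptor genes of CD45+ cells. Calcrl was at 5.30 to 9.84 CPM (median 7.89) in Hoil1+/+ and 6.19 to 22.3 CPM (median 13.3) in Hoil1-/- libraries (log2 fold change 0.75, SE 0.34; edgeR quasi-likelihood, adjusted p = 0.784). The highest Calcrl values, 20.0 and 22.3 CPM, lay in Hoil1-/- ΔIEC libraries, and the genotypes overlapped. Ramp3 gave 0.93 (95% interval 0.19 to 1.67, adjusted p = 0.784), and 0.48 over all 12 libraries. The 95% intervals were -1.36 to 0.38 for Ramp1, -0.94 to 0.64 for Vipr1 and -1.68 to 3.04 for Vipr2. With Nmur1 included, the median log2 fold change of the 6 receptor genes was 0.72, beside -0.05 for all genes tested, and over all 12 libraries 0.30 beside -0.02.

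Ramp3 had the largest estimate for epithelial Il4ra deletion in CD45+ cells. The f/f libraries held 6.92, 6.55 and 13.6 CPM in Hoil1+/+ and 3.94, 20.2 and 11 CPM in Hoil1-/- mice. ΔIEC libraries held 21.2, 45.0 and 17.3 CPM in Hoil1+/+ and 58.6, 60.7 and 6.53 CPM in Hoil1-/- mice. In Hoil1+/+ mice every ΔIEC value was above every f/f value. In Hoil1-/- mice this held for the libraries of the study list, and the left-out ΔIEC library (6.53 CPM) lay within the f/f range. How many of all genes separate the Il4ra genotypes in groups this small was not computed.

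The log2 difference for Ramp3 was 1.80 (SE 0.35, unadjusted p = 0.000456), with an adjusted p of 0.184 in edgeR's quasi-likelihood test, and 1.72 (adjusted p = 0.864) over all 12 libraries. It was the only member with an unadjusted p under 0.05 there. No member was among the 0.00587% of genes called, while DESeq2 (adjusted p = 0.000443, 1.95% of genes called) and the likelihood ratio test (adjusted p = 0.00082, 1.18% called) called Ramp3 alone. In CD45- cells no member had an unadjusted p under 0.05 for Il4ra deletion, and no gene was called by edgeR's quasi-likelihood test (0%), nor any member by DESeq2 or the likelihood ratio test.

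**Figure D4:**
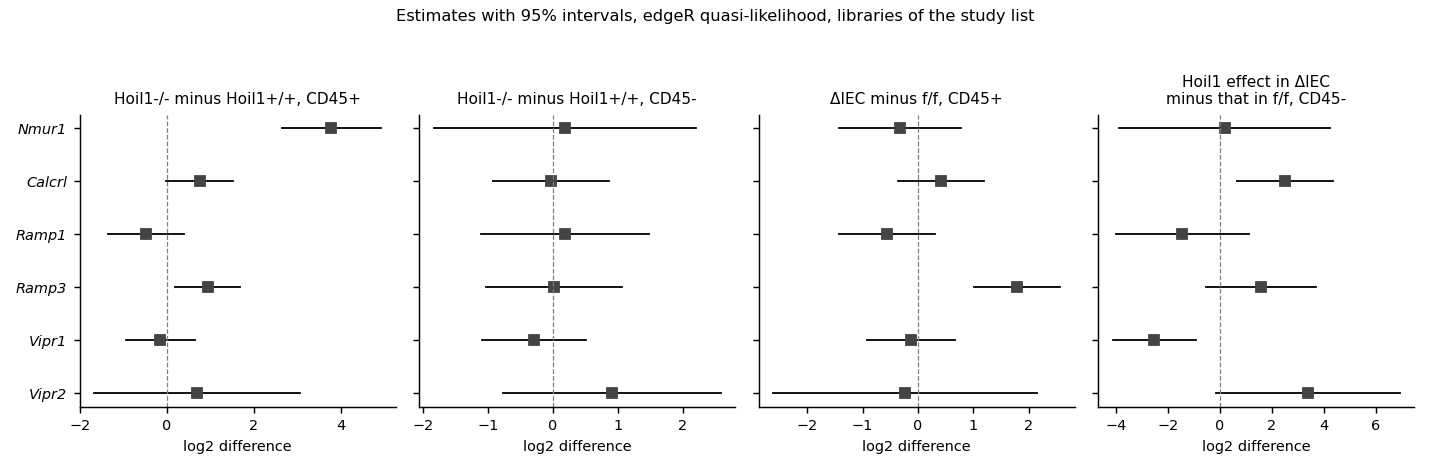
Squares are log2 differences and lines their 95% intervals for 6 genes in 4 comparisons (edgeR quasi-likelihood, libraries of the study list). The horizontal scales differ between panels, and the dashed line marks 0. The interval of Nmur1 for Hoil1 in CD45+ cells runs from 2.63 to 4.92, that of Ramp3 for Il4ra deletion from 1.02 to 2.58, and the intervals of Calcrl and Vipr1 for the interaction in CD45- cells lie on opposite sides of 0.

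In CD45- cells the interaction estimates of Calcrl and Vipr1 had opposite signs, and neither passed the adjusted threshold. Calcrl in f/f mice was at 167, 348 and 337 CPM in Hoil1+/+ and 57.3, 175 and 129 CPM in Hoil1-/- libraries. In ΔIEC mice it was at 79.0, 78.8 and 261 CPM in Hoil1+/+ and 240, 318 and 395 CPM in Hoil1-/- libraries. The order of the Hoil1 genotypes was thus turned around between f/f and ΔIEC, with the groups overlapping in both.

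Vipr1 in f/f mice was at 71.4, 29.1 and 31.7 CPM in Hoil1+/+ and 127, 43.1 and 42.2 CPM in Hoil1-/- libraries. In ΔIEC mice it was at 96.7, 96.0 and 53.4 CPM in Hoil1+/+ and 30.5, 21.3 and 31.4 CPM in Hoil1-/- libraries. The ΔIEC groups, of 3 libraries each, did not overlap, with the Hoil1-/- libraries below. The share of all genes separated in this way was not computed. The Hoil1 effect in ΔIEC minus that in f/f mice was 2.52 for Calcrl (SE 0.84, adjusted p = 0.163) and -2.53 for Vipr1 (SE 0.72, adjusted p = 0.135), on the log2 scale and by edgeR's quasi-likelihood test.

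For the other receptor genes this interaction was -1.44 for Ramp1 (95% interval -4.01 to 1.13), 1.57 for Ramp3 (-0.55 to 3.70) and 3.40 for Vipr2 (-0.14 to 6.93). The median over the 6 genes was 0.88, beside 0.29 over all genes. By edgeR's quasi-likelihood test no gene passed (0%), although 3409 of 16453 had an unadjusted p under 0.05. DESeq2 called 8.91% of genes, with Calcrl (adjusted p = 0.0315) and Vipr1 (0.0189) among them. The likelihood ratio test called 7.43%, with Vipr1 (0.0248) and Calcb, a gene without counts in some groups. Without CD45- Hoil1+/+ ΔIEC replicate 3, Calcrl (adjusted p = 0.0319) and Vipr1 (0.0481) passed the quasi-likelihood test, and without CD45- Hoil1-/- f/f replicate 2 Vipr1 did (0.0348). The latter fit had 1 library in the Hoil1-/- f/f group, replicate 1 with 127 CPM of Vipr1, which was assumed to vary like the other groups. It also called Nmur1, which had no count in that library.

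The cell content of the CD45- libraries moved with these receptors. Summed over 10 blood endothelial markers, the f/f libraries held 1981, 7029 and 3901 CPM in Hoil1+/+ and 1269, 2255 and 4405 CPM in Hoil1-/- mice, and the ΔIEC libraries 2264, 2110 and 6592 CPM and 6817, 8185 and 2850 CPM. All 10 markers were counted in every one of these libraries, as were all 8 epithelial markers, whose sum ran from 895 CPM in Hoil1-/- ΔIEC replicate 2 to 14990 CPM in Hoil1+/+ ΔIEC replicate 1. The interaction estimate was -2.74 for Epcam and 2.09 for the endothelial gene Pecam1, similar in size to those of Vipr1 and Calcrl. Whether cell content set the differences in Calcrl and Vipr1 was not tested.

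Over the 12 CD45- libraries, log2 levels of Calcrl followed the endothelial sum (r = 0.716) and ran against the epithelial sum (-0.747). Ramp3 did likewise (0.892 and -0.752). Vipr1 (-0.799 and 0.828) and Ramp1 (-0.885 and 0.855) ran the other way. The 2 components of the CGRP receptor therefore varied in opposite directions over these libraries (r = -0.599 between Calcrl and Ramp1), and so did the partner proteins (r = -0.831 between Ramp1 and Ramp3). Calcrl was closer to Ramp2, the third partner protein (r = 0.884). Its closest link with a marker list was with 8 enteric neuron markers (0.907), which summed to only 25.5 to 140 CPM. Other lists gave the same signs as the endothelial sum. For Calcrl, Ramp3, Vipr1 and Ramp1 in turn, r was 0.643, 0.883, -0.864 and -0.763 with the fibroblast sum. With the smooth muscle and pericyte sum it was 0.815, 0.272, -0.675 and -0.560. All of these coefficients are across libraries that share cell preparation and differ in depth, and they are descriptions.

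The genes most alike in level over the CD45- libraries were, among 13729 compared, Csrp1 (r = 0.977), Sncg and Prelp for Calcrl, Pard6b (0.981), Ptprf and Pipox for Vipr1, and Pak1 (0.955), Gata6 and Pgls for Ramp1. For Ramp3 they were Nid1 (0.978), which encodes a basement membrane protein, Tap2 and Itm2b, for Vipr2 Arrb2 (0.938), Sulf1 and Gm6807, and for Vip the cannabinoid receptor gene Cnr1 (0.944), Kcnj12 and Nsg2.

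**Figure D5:**
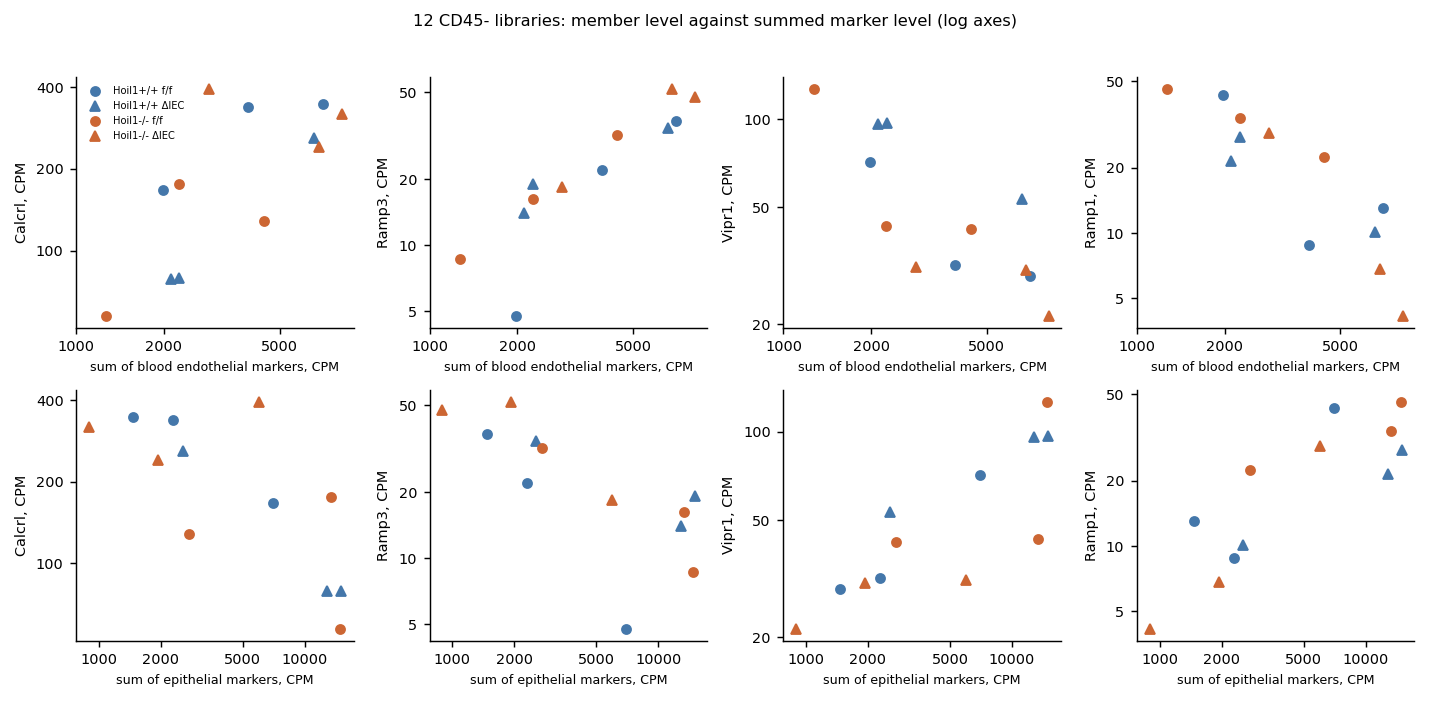
Levels in CPM of Calcrl, Ramp3, Vipr1 and Ramp1 (vertical, log axes) are plotted against the summed blood endothelial markers (top row) and epithelial markers (bottom row) in the 12 CD45- libraries, with colours for Hoil1 and shapes for Il4ra genotype. Calcrl and Ramp3 climb with the endothelial sum (r = 0.716 and 0.892) and Vipr1 and Ramp1 with the epithelial sum (r = 0.828 and 0.855).

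Among the 53 other genes of these pathways, 23 had no count in CD45+ and 13 none in CD45- cells, and 9 and 22 reached a mean of 1 CPM. In CD45+ cells the highest means, not scaled by gene length, included those of Crcp, a CGRP receptor component protein (mean 18.4 CPM), Adrb1 (12.9), Ddc, a decarboxylase of monoamine synthesis (9.00), and Maoa, a monoamine oxidase (6.59). In CD45- cells they were those of Ramp2 (mean 175 CPM), Maoa (136), Sst, which encodes somatostatin (101), Sct, the secretin gene (48.1), and Ddc (40.7). The neuromedin receptor gene Nmur2 was counted in 6 CD45- libraries at up to 5.01 CPM, and Calcr and Adcyap1, the gene for the VIP-related peptide PACAP, had no count in either fraction. Adcyap1r1, the PACAP receptor gene, averaged 0.46 CPM in CD45+ and 6.77 CPM in CD45- libraries.

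Adrb1, the gene of an adrenergic receptor, had a log2 fold change between Hoil1 genotypes of -2.42 in CD45+ cells (SE 0.66; edgeR quasi-likelihood, adjusted p = 0.723), and it was called by DESeq2 (adjusted p = 0.0143) and the likelihood ratio test (0.0391). The levels were 6.06, 38.4 and 17 CPM (f/f) and 26.6, 24.1 and 12.4 CPM (ΔIEC) in Hoil1+/+ libraries against 3.30, 1.45 and 11.2 CPM (f/f) and 2.05, 2.92 and 9.19 CPM (ΔIEC) in Hoil1-/- libraries. Adrb3 had no count in CD45+ cells and was counted in 1 CD45- library.

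Of the pathway genes, 39 were tested between fractions, and 15 were lower and 4 higher in CD45+ cells, beside 25.1% and 24.5% of all genes (median log2 difference -2.92 over the 10 counted in every group, beside 0.03 for all genes). Those that were higher included Adrb1, Calca and Adra2c, the last at no more than 1.67 CPM and not called by DESeq2. The lower ones included Ramp2 (log2 difference -8.60, SE 0.65, adjusted p = 2.9e-08), Adm, the adrenomedullin gene (-3.61, SE 1.14, adjusted p = 0.014), Maoa (-4.40), Adra2a (-4.36) and Ddc (-2.23). For Hoil1, Il4ra and their interaction, 21 pathway genes were tested in CD45+ and 34 in CD45- cells, and 0 were called by edgeR's quasi-likelihood test in any of these 6 comparisons. In them, 1 to 8 pathway genes had an unadjusted p under 0.05, and DESeq2 called 0 to 3 and the likelihood ratio test 0 to 2. The highest of these counts were all for the interaction in CD45- cells. There 3409 of 16453 genes had an unadjusted p under 0.05, and DESeq2 called 8.91% and the likelihood ratio test 7.43% of all genes. Ramp2, the partner that makes CALCRL an adrenomedullin receptor, was at 42.0 to 324 CPM in CD45- and 0 to 5.02 CPM in CD45+ libraries, with no overlap.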

How the data were processed

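RNA was sequenced from sorted CD45+ and CD45- ileum cells in 24 libraries. Reads were processed by the authors with cutadapt (adapter trimming), STAR (alignment to mm10) and featureCounts (assignment to genes), and the deposited values are raw counts of 39056 genes without normalization. Libraries were made from poly-A RNA by PCR without molecular identifiers. Gene symbols and positions were taken from GENCODE M21 (GRCm38), which left 184 genes without a symbol.

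Groups came from the sample labels. Per fraction, counts were tested with edgeR 4.0.16 (R 4.3.3, quasi-likelihood, TMM scaling, filterByExpr at min.count 10 and min.total.count 15), Benjamini-Hochberg adjustment over all genes and a threshold of 0.05. The 3 libraries that the study removed were left out, as in its methods. Fractions were compared in a fit over both. Exact permutation tests (scipy 1.17.1) used means of log2(CPM + 0.1), two-sided, and 100000 resamples between fractions. Levels are CPM with TMM factors over all 24 libraries. Fitted values are not given for genes without counts in a group compared. The fits were tested on simulated counts first.

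Alternatives were all libraries, the likelihood ratio test, DESeq2 1.42.0, other scaling, no filter, removal of immunoglobulin genes and leaving out each library. Correlations used log2(CPM + 0.5) over genes with a mean of at least 1 CPM. Named genes were the 9 members, their partner genes, adrenergic receptors, pathway genes past the threshold or among the 5 of highest mean CPM in a fraction, the 3 genes most alike to a member, and markers beside a result. Some listed genes are not reported here. The members and lists were chosen with earlier results of these data known.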

Additional observations from a re-analysis of the deposited data

Results flagged for a closer look

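Among 28 sets of 6 libraries (a gene in a fraction and genotype), Dixon's test at the 95% level marked 2 libraries as far from the rest, and chance marks about 1 in 20 such sets. Nmur1 in CD45+ Hoil1-/- mice reached 93.8 CPM in f/f replicate 2, where the next highest of the 6 libraries held 35.1 CPM. Vipr1 in CD45- Hoil1-/- mice reached 127 CPM in f/f replicate 1, where the next highest held 43.1 CPM.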

How the results depend on the processing

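The number of members called for Hoil1 in CD45+ cells was 0 by edgeR's quasi-likelihood test and 1 (Nmur1) with the likelihood ratio test, DESeq2, no filter or no immunoglobulin genes, and 0 to 1 when each library was left out. For Il4ra in CD45+ cells it went from 0 to 1 (Ramp3) with the likelihood ratio test and DESeq2. For the interaction in CD45- cells it went from 0 to 2 with either tool and was 0 to 2 with a library left out. For the Hoil1 effect in CD45+ minus CD45- cells it was 0 with a library left out, where each group kept more than 1 library. Between fractions it was 3 by the quasi-likelihood test, 4 with DESeq2 (Vip added) and 2 to 3 with a library left out on that condition. Without CD45- Hoil1-/- f/f replicate 2, the library left in that group had no Nmur1 count, so Nmur1 is not counted for these 2 comparisons. Where the study had already removed a library, leaving out another leaves 1 library in the group, assumed to vary like the other groups. The sign turned for Nmur1 in CD45- cells over all libraries (log2 difference between Hoil1 genotypes -0.10) and, without the filter, for the fraction difference of Ramp3 (0.044) and Vipr2 (0.019). Leaving out a library gave, for Hoil1, -0.32 to 0.13 (Vipr1) and -0.0042 to 1.27 (Vipr2) in CD45+ cells and -0.80 to 0.015 (Vipr1) in CD45- cells, and for the fraction difference -0.14 to 0.15 (Ramp3) and -0.38 to 0.35 (Vipr2). The Ramp1 permutation p between fractions was 0.00754, and 0.0648 with TMM-scaled CPM. The causes were not tested. No paired analysis was possible because the labels do not tie libraries of different groups to the same mouse or batch. With 4 to 6 libraries a genotype, depth and spread limit genes near 1 CPM most.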

Other observations

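Genes of gut peptide hormones and of amine metabolism were among the pathway genes with the highest mean CPM in the CD45- sort. Sst was at 4.13 to 304 CPM (median 65.5) and Sct at 1.08 to 142 CPM (median 37.1) in the 12 CD45- libraries, against at most 1.24 and 1.22 CPM in CD45+ libraries. Maoa was at 60.0 to 305 CPM (median 96.5) in CD45- and 0.04 to 14 CPM (median 6.17) in CD45+ libraries. Sst, Sct, Maoa, the neurotensin gene Nts, the tachykinin gene Tac1, the neuropeptide Y receptor gene Npy1r and the alpha-adrenergic receptor genes Adra1a and Adra2a were among the 15 pathway genes that were lower in CD45+ cells (edgeR quasi-likelihood, adjusted over all genes). Adra2c was higher there, at 0 to 1.67 CPM in CD45+ and 0 to 0.41 CPM in CD45- libraries, and DESeq2 did not call it.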
